A study of Homo sapiens with 18 samples.

Results

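DLPC (dilauroylphosphatidylcholine), a phosphatidylcholine with short saturated acyl chains, was given to HepG2 cells at 100 µM and compared with its vehicle, ethanol at 0.1%. The response was read from 6 of the 18 libraries of the series, 3 with DLPC and 3 with ethanol, chosen by their treatment labels and not by any measured value. A further 3 libraries, treated with DMSO at 0.1%, served as a check of each call. The other 9 libraries were treated at 10 µM with 6N, with 10CA or with 6N-10CA, all small molecules. These 9 entered the filter, the scaling and the shared estimate of the spread, and some of their values are set beside those of DLPC. HepG2 is a human liver tumour line, so that all groups come from 1 line, and every group was kept in medium with charcoal-stripped serum during treatment. No label ties DLPC to a vehicle, and ethanol was taken as its own from knowledge of the study.

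DLPC is known as an agonist of LRH-1, a nuclear receptor encoded by NR5A2 that binds phospholipids in its pocket and drives genes of bile acid, steroid and lipid metabolism in the liver. Sterol and fatty acid synthesis is under the control of SREBP transcription factors, which are held in the endoplasmic reticulum when the membrane is rich in sterol and are released when it is poor. NF-kB factors such as RELA and RELB drive inflammatory genes in the same cells, several of which encode proteins that the liver secretes in the acute phase.

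Total counts lay between 28135967 and 34992442 per library over the series, and 14797 genes passed the filter on low counts. Values are CPM, counts scaled to a common library total, and a gene was called where the adjusted p of edgeR's quasi-likelihood test was under 0.05. Calls are those of edgeR without a replicate block unless another tool or fit is named. All 13 hepatocyte markers were tested, and their summed level was 68461 to 76375 CPM with DLPC, 63227 to 71880 CPM with ethanol and 65582 to 69398 CPM with DMSO. Of 18 markers of stromal, endothelial and blood cells, 10 were tested, edgeR called 0 of them against ethanol (3 before adjustment, at a p under 0.05), DESeq2 1 higher and limma-voom 0, while KDR and HBB were at 0 counts in every library. The summed level of these markers was 486 to 573 CPM with DLPC, 459 to 516 CPM with ethanol and 435 to 459 CPM with DMSO, and 2 of them, CDH5 and CD68, rose against DMSO. Their part in the results below was not tested. In bulk libraries scaled to a common total, fewer cells expressing a gene and less RNA per cell cannot be told apart.

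DLPC raised genes of sterol and fatty acid synthesis, such as MVD (1.34-fold) and ACSS2 (1.42-fold), and lowered UBD, PLA2G2A, RELB and TAGLN, which stood at 0.448, 0.519, 0.555 and 0.562 of the ethanol level. In all, 154 genes were called against ethanol, which is 1.04% of those tested, with 93 higher (0.629%) and 61 lower (0.412%). The changes were small: 29 called genes moved by more than 1.5-fold and 4 by more than 2-fold. Of these 4, only UBD averaged at least 1 CPM, and the others were CXCL2, ADH1A and GLDN. Against DMSO 380 genes were called (2.57%), 235 higher (1.59%) and 145 lower (0.98%). Of the 154 genes, 106 (0.716% of those tested) were also called in the same direction against DMSO, 61 higher (0.412%) and 45 lower (0.304%). Both counts use the same DLPC libraries. Between the vehicles, ethanol against DMSO, edgeR called 0 genes (adjusted p of 0.367 and above), DESeq2 13 and limma-voom 0. Before adjustment 479 genes had a p under 0.05 in edgeR, beside 1930 for DLPC against ethanol.

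The count of 154 depended on the model and on which libraries entered the fit. With the replicate number added to the fit as a block it was 997. Without 1 library it was 59, 118 and 70 for DLPC replicates 1, 2 and 3, and 87, 56 and 83 for ethanol replicates 1, 2 and 3. All 154 genes kept their sign in these 6 fits, 42 were called in every one and 27 in none. The count of 106 was 41 and 47 without DLPC replicates 1 and 3, 48 and 52 without ethanol replicates 2 and 3, and 67 without DMSO replicate 3. The count of 380 against DMSO was 103 and 133 without DLPC replicates 1 and 3, and 251, 114 and 134 without DMSO replicates 1, 2 and 3. The genes called in all 6 fits include MVD, DHCR7, FDFT1, ACLY, ACSS2, ACSL4, SCD, ANGPTL8 and UCP2 among those higher, and UBD, PLA2G2A, RELB, NFKBIZ, ICAM1, SERPINA3, HP, TAGLN, SPINK1, ODAM and SCGN among those lower.

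**Figure D1:**
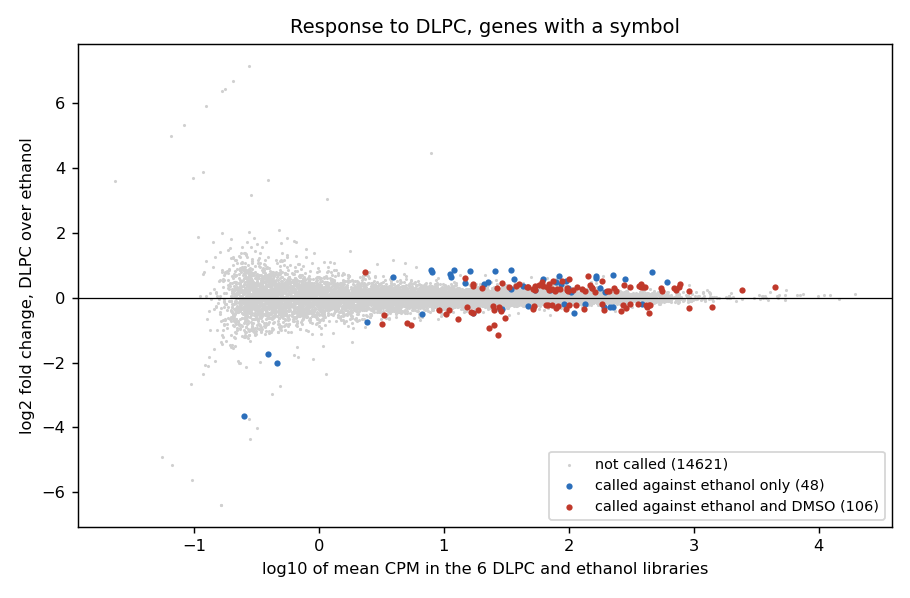
Log2 fold change of DLPC over ethanol (vertical axis) against the log10 of the mean CPM in the 6 DLPC and ethanol libraries (horizontal axis), 1 point per tested gene with a usable symbol. The 106 genes called against both vehicles and the 48 called against ethanol only lie mostly within 1 log2 unit of 0, and the large uncalled values belong mainly to genes of low level.

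Genes of sterol synthesis were among the rises. Of 26 tested genes of cholesterol synthesis and uptake, 10 rose against ethanol and 0 fell, and all 10 also rose against DMSO, where 14 rose and 0 fell. Over all genes tested 0.629% rose against ethanol and 1.59% against DMSO. The median log2 fold change of the 26 was 0.22 against ethanol, beside 0.00 over all genes tested, and 24 of the 26 were positive. In 22 of the 26 all 3 DLPC libraries lay above all 3 ethanol libraries, which held for 9.79% of all genes tested. DESeq2 called 16 of the list higher against ethanol, and edgeR without a filter on low counts also 16. Without DLPC replicate 3 the count of 10 was 6, and the count of 14 against DMSO was 9 without DLPC replicate 3 or DMSO replicate 3.

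HMGCS1 and MVD belong to the mevalonate arm, which builds isoprenoid units from acetyl-CoA. HMGCS1 (GRCh38 chromosome 5, 43289395 to 43313512), which makes HMG-CoA, had 405, 398 and 431 CPM with DLPC, against 335, 317 and 315 CPM with ethanol and 286, 324 and 312 CPM with DMSO. The DLPC libraries lay above all 6 vehicle libraries. Its log2 fold change was 0.35 ± 0.06 (SE) against ethanol (adjusted p = 0.00685) and 0.42 ± 0.06 against DMSO, and without DLPC replicate 3 the adjusted p against ethanol was 0.0547. MVD (chromosome 16, 88651935 to 88663161), the mevalonate diphosphate decarboxylase, had 447, 438 and 411 CPM with DLPC, against 336, 328 and 305 CPM with ethanol and 305, 353 and 321 CPM with DMSO. Again no vehicle library reached the lowest DLPC library, and the log2 fold change was 0.42 ± 0.06 against ethanol (adjusted p = 0.000784) and 0.41 ± 0.06 against DMSO. ACAT2, the cytosolic thiolase at the start of the arm, had a log2 fold change of 0.24 (adjusted p = 0.0413), and this call was lost in each of the 6 fits without a library, at adjusted p up to 0.171.

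DHCR7, MSMO1, LSS and FDFT1, enzymes of the steps that make squalene and turn it into cholesterol, also rose. DHCR7 (chromosome 11, 71428193 to 71452868), which catalyses the last step to cholesterol in one branch, had 948, 857 and 850 CPM with DLPC, against 715, 632 and 629 CPM with ethanol and 641, 661 and 628 CPM with DMSO. DLPC overlapped with neither vehicle, and the log2 fold change was 0.43 ± 0.07 against ethanol (adjusted p = 0.00353) and 0.46 ± 0.07 against DMSO. MSMO1 (chromosome 4, 165327623 to 165343160), a methyl sterol oxidase, had 333, 342 and 372 CPM with DLPC, against 279, 255 and 291 CPM with ethanol and 269, 288 and 263 CPM with DMSO. Its DLPC libraries also lay above every vehicle library, with a log2 fold change of 0.34 ± 0.06 against ethanol (adjusted p = 0.0113). The call of MSMO1 was lost without DLPC replicate 3 (adjusted p = 0.0896) or ethanol replicate 2. LSS, the lanosterol synthase, and FDFT1, the squalene synthase, had log2 fold changes of 0.31 and 0.29 against ethanol (adjusted p = 0.0174 and 0.00478) and of 0.35 and 0.29 against DMSO. The call of LSS was lost without DLPC replicate 1 or 2 or ethanol replicate 3, at adjusted p up to 0.109.

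Not every step of the pathway passed the test. SQLE, which oxidises squalene, had a log2 fold change of 0.20 against ethanol (adjusted p = 0.0609) and 0.19 against DMSO (adjusted p = 0.0428). IDI1, the isomerase of the isoprenoid units, had 0.25 against ethanol (adjusted p = 0.0522). PMVK, the phosphomevalonate kinase, had -0.03 against ethanol and -0.06 against DMSO. SREBF2, the gene of SREBP2, had 451, 397 and 410 CPM with DLPC, against 379, 358 and 347 CPM with ethanol and 342, 325 and 347 CPM with DMSO. DLPC overlapped with neither vehicle, and it was called against DMSO (log2 fold change 0.31, adjusted p = 0.00345) and not against ethanol (0.21, adjusted p = 0.0601). STARD4, a sterol transfer protein, was called against ethanol (0.32, adjusted p = 0.0454), a call lost in each fit without 1 of the 6 libraries, at adjusted p up to 0.193.

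The promoters of the 4 sterol genes described by library are shown because these genes moved together. The lines give the 250 bases before a RefSeq start of each gene (GRCh38.p14), read 5′ to 3′ on the strand of the gene, with capitals marking the NF-Y box CCAAT on either strand (ATTGG on the strand shown). The stretches lie at chr5:43313413-43313662 on the minus strand, chr16:88663092-88663341 on the minus strand, chr11:71448394-71448643 on the minus strand and chr4:165327419-165327668 on the plus strand.
HMGCS1: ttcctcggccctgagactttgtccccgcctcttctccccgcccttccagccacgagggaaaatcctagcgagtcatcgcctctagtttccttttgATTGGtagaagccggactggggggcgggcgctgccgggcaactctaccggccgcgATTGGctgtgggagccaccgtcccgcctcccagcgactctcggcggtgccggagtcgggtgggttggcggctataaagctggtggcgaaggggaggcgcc
MVD: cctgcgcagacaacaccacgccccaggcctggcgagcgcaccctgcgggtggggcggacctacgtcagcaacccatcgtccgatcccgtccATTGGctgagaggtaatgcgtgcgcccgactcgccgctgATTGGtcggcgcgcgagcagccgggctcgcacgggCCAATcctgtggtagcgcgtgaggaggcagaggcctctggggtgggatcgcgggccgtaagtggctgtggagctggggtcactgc
DHCR7: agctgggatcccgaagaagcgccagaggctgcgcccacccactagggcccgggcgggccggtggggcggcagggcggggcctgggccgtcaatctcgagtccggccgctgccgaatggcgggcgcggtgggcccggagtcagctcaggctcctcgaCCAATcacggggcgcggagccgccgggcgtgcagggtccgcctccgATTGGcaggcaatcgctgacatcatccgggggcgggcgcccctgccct
MSMO1: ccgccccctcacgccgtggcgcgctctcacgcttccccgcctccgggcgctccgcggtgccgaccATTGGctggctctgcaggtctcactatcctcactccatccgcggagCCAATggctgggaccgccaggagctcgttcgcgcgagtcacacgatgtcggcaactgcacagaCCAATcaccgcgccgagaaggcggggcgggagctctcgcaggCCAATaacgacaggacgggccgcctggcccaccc

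These stretches hold 2, 3, 2 and 4 matches of CCAAT. HMGCS1 and DHCR7 each had 2 RefSeq windows, and for both genes the window that is not shown held no CCAAT. In windows of 250 bases before to 50 after a start, CCAAT was present in 16 of the 19 cholesterol genes that had a window (84.2%) and in 42.8% of the 10544 tested genes with one. The sterol regulatory element, searched as TCACNCCAC on both strands, was present in 1 of the 19 (5.26%) and in 1.56% of the tested genes with a window. A match is a description of the letters, not a site of binding.

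Genes of acetyl-CoA supply and of fatty acid desaturation and activation were also among the rises. Of 23 tested genes of fatty acid and triglyceride synthesis, 5 rose against ethanol and 0 fell, and all 5 also rose against DMSO, where 10 rose and 0 fell. DESeq2 called 11 higher against ethanol, and edgeR without a filter on low counts 10. Over all genes tested edgeR called 0.629% higher against ethanol and 1.59% against DMSO. The median log2 fold change of the list was 0.23 against ethanol. In 16 of the 23 all 3 DLPC libraries lay above all 3 ethanol libraries, which held for 9.79% of all genes tested. ACLY (chromosome 17, 41866908 to 41930542), which cleaves citrate to cytosolic acetyl-CoA, had 883, 845 and 809 CPM with DLPC, against 705, 677 and 630 CPM with ethanol and 670, 667 and 627 CPM with DMSO. All 3 DLPC libraries were above all 6 vehicle libraries, and the log2 fold change was 0.33 ± 0.05 against ethanol (adjusted p = 0.00107) and 0.37 ± 0.05 against DMSO. ACSS2 (chromosome 20, 34872146 to 34927962), which makes acetyl-CoA from acetate, had 235, 209 and 206 CPM with DLPC, against 171, 145 and 142 CPM with ethanol and 154, 146 and 139 CPM with DMSO. Its log2 fold change of 0.50 ± 0.08 against ethanol (adjusted p = 0.00361) was the highest of the called members of this list.

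SCD and the acyl-CoA synthetases ACSL3 and ACSL4 act on the fatty acids once made. SCD (chromosome 10, 100347124 to 100364834), the desaturase that makes monounsaturated fatty acids, had 5141, 4850 and 4818 CPM with DLPC, against 4204, 3952 and 3722 CPM with ethanol and 4084, 3848 and 3694 CPM with DMSO. ACSL4 (chromosome X, 109624244 to 109733403), which prefers polyunsaturated fatty acids, had 343, 298 and 309 CPM with DLPC, against 247, 237 and 234 CPM with ethanol and 231, 213 and 216 CPM with DMSO. In both genes the DLPC libraries stood apart from the vehicles. Log2 fold changes against ethanol were 0.32 ± 0.05 for SCD (adjusted p = 0.0035) and 0.40 ± 0.05 for ACSL4 (adjusted p = 0.000716). ACSL3, linked to lipid droplets, had 0.34 ± 0.06 (adjusted p = 0.00694), a call lost without DLPC replicate 1 (adjusted p = 0.0685) or ethanol replicate 2.

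FASN, the fatty acid synthase, had 1015, 1008 and 1084 CPM with DLPC, against 835, 848 and 703 CPM with ethanol and 654, 886 and 850 CPM with DMSO. Its DLPC libraries were above every vehicle library, yet the vehicle libraries were widely spread. The log2 fold change of 0.38 was called against DMSO (adjusted p = 0.0381) and not against ethanol (adjusted p = 0.0591). SREBF1, the gene of SREBP1, had 336, 359 and 334 CPM with DLPC, against 303, 351 and 293 CPM with ethanol and 290, 321 and 308 CPM with DMSO. The DLPC and ethanol libraries overlapped, and the log2 fold change of 0.12 (95% interval -0.02 to 0.26) was not called. ACACA, GPAM and PNPLA3, which act in fatty acid and triglyceride synthesis and turnover, were called against DMSO (0.47, 0.39 and 0.31) and not against ethanol (0.31, 0.24 and 0.23).

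**Figure D2:**
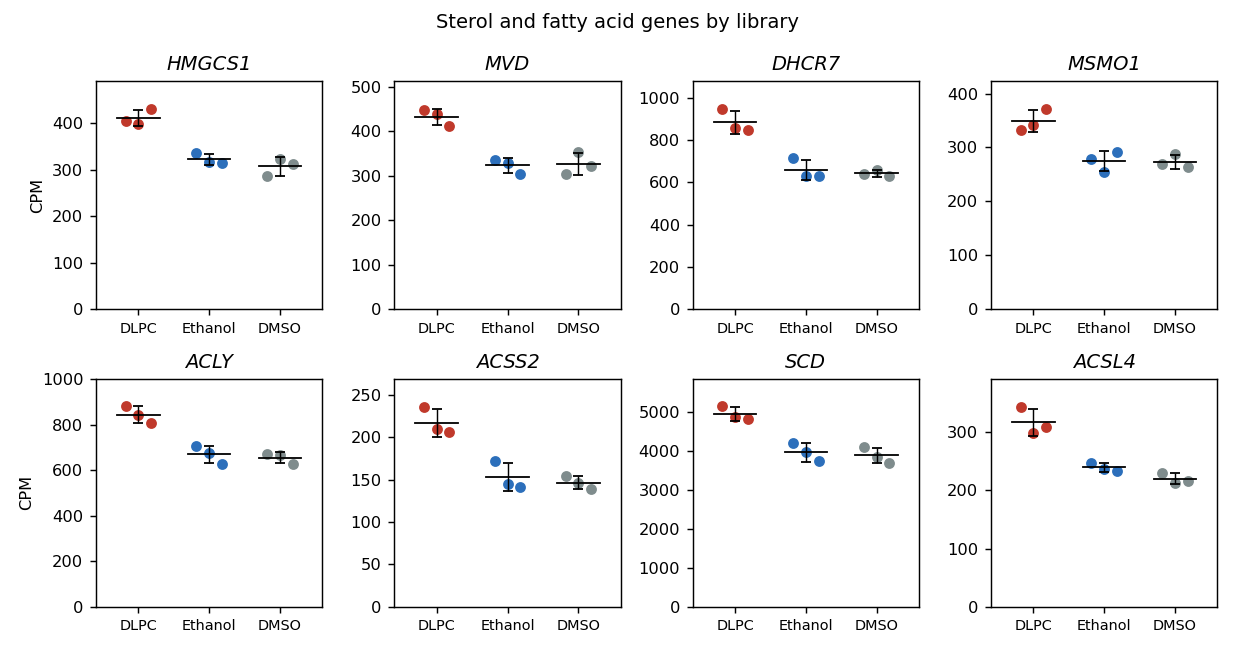
CPM in each library (dots) of 8 genes of sterol and fatty acid synthesis with DLPC, ethanol and DMSO, with the mean (line) and SD (bars) of 3 libraries. In each panel all 3 DLPC libraries lie above all 6 vehicle libraries, as for DHCR7 with 850 to 948 CPM with DLPC.

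ANGPTL8, a hepatic secreted protein that regulates lipoprotein lipase, had the largest rise among the genes called against both vehicles in all 6 fits without a library. It had 175, 173 and 181 CPM with DLPC, against 117, 109 and 108 CPM with ethanol and 116, 94.6 and 107 CPM with DMSO. DLPC stood far above both vehicles, and the log2 fold change was 0.66 ± 0.09 against ethanol (adjusted p = 0.000716) and 0.74 ± 0.09 against DMSO. ANGPTL8 (chromosome 19, 11237450 to 11241943) lies wholly within DOCK6 (11199295 to 11262481) on the opposite strand. DOCK6, an exchange factor for small GTPases, had 131, 118 and 114 CPM with DLPC, against 89.3, 80.6 and 72 CPM with ethanol and 81.8, 73.3 and 80.8 CPM with DMSO, a log2 fold change of 0.58 against ethanol. No source used here states the strandedness, so the reads of the pair cannot be told apart. Of the 22 tested genes of lipoproteins and lipid transfer, ANGPTL8 was the only call of edgeR against ethanol, DESeq2 called 3 higher and edgeR without a filter on low counts 4, and in edgeR 5 rose against DMSO, among them APOB (0.29, adjusted p = 0.0302) and APOA5 (0.39, adjusted p = 0.0208). That count of 5 was 1 without DLPC replicate 1 or 3 or DMSO replicate 2 or 3. Among all genes tested 0.629% rose against ethanol and 1.59% against DMSO. Of the 22 genes 15 were positive against ethanol. All 3 DLPC libraries lay above all 3 ethanol libraries in 7 of the 22 (9.79% of all genes tested) and below them in 0 (9.39%).

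Genes of fatty acid oxidation gave 2 rises and 0 falls against ethanol among 22 tested, where 0.629% of all genes tested rose. Of these 22 genes 18 had a positive log2 fold change. All 3 DLPC libraries lay above all 3 ethanol libraries in 8 of the 22 (9.79% of all genes tested) and below them in 0 (9.39%). UCP2, a mitochondrial inner membrane carrier, had 79.3, 81.6 and 79.4 CPM with DLPC, against 61.8, 61.1 and 57.8 CPM with ethanol and 57.6, 57.0 and 54.4 CPM with DMSO. DLPC overlapped with neither vehicle, and the log2 fold change was 0.41 ± 0.06 against ethanol (adjusted p = 0.00212) and 0.51 ± 0.06 against DMSO. PKLR, the pyruvate kinase of liver, was the only call among 18 genes of glucose metabolism (0.24, adjusted p = 0.0413), where edgeR without a filter on low counts called 3. The call of PKLR was lost in each of the 6 fits without a library, at adjusted p up to 0.166. Of these 18 genes 14 were positive. All 3 DLPC libraries lay above all 3 ethanol libraries in 3 of the 18 and below them in 0.

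NR5A2 (chromosome 1, 200027602 to 200177424), which encodes LRH-1, had low CPM, and its libraries did not separate by treatment. It had 4.39, 3.60 and 4.03 CPM with DLPC, against 3.31, 3.38 and 5.17 CPM with ethanol and 3.97, 3.11 and 4.48 CPM with DMSO. The groups overlapped, and the log2 fold change was 0.02 with a 95% interval of -0.37 to 0.42. Of 24 tested LRH-1 targets, 1 rose and 0 fell against either vehicle. Among all genes tested 0.629% rose against ethanol and 1.59% against DMSO. The median log2 fold change of the 24 against ethanol was 0.06, and 17 were positive. All 3 DLPC libraries lay above all 3 ethanol libraries in 5 of the 24 (9.79% of all genes tested) and below them in 1 (9.39%). The list was drawn from general knowledge of the receptor.

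CYP19A1 was the LRH-1 target that rose in the fit without the block. It encodes aromatase, which makes oestrogens from androgens, and it lies on chromosome 15 from 51208057 to 51338610. It had 77.0, 61.9 and 73.4 CPM with DLPC, against 57.5, 47.7 and 47.2 CPM with ethanol and 50.6, 49.0 and 46.8 CPM with DMSO. The lowest DLPC library was above the highest vehicle library. The log2 fold change was 0.48 ± 0.08 against ethanol (adjusted p = 0.00673) and 0.54 ± 0.08 against DMSO (adjusted p = 0.00193), and the call against ethanol was lost without DLPC replicate 1 (adjusted p = 0.0582) or ethanol replicate 2 (adjusted p = 0.0589). CYP19A1 has several promoters, and 1 of its 7 RefSeq windows held the LRH-1 motif CAAGGTCA (searched on both strands) upstream of the start. That stretch is shown with the motif in capitals, at chr15:51243030-51243279 on the minus strand (GRCh38.p14).
CYP19A1: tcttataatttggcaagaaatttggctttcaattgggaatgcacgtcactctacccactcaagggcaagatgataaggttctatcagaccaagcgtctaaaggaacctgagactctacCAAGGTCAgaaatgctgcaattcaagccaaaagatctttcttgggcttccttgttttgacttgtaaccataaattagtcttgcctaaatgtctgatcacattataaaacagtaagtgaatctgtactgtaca

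The motif was present in 2 of the 16 LRH-1 targets with a window (12.5%) and in 1.15% of the tested genes with one. The deposited counts do not say which promoter of CYP19A1 was used.

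The other LRH-1 targets did not pass in the fit without a replicate block. NR0B2, which encodes the repressor SHP, had 99.5, 84.9 and 117 CPM with DLPC, against 73.7, 65.6 and 94.8 CPM with ethanol and 75.1, 74.8 and 96.8 CPM with DMSO. The groups overlapped, though each DLPC library was above the same-numbered library of either vehicle. The log2 fold change was 0.37 with a 95% interval of 0.05 to 0.69 (adjusted p = 0.292). CYP7A1, whose enzyme sets the rate of the classic route to bile acids, had 15.3, 13.9 and 12.2 CPM with DLPC, against 17.9, 15.3 and 15 CPM with ethanol and 17.3, 15.7 and 14.9 CPM with DMSO. Each DLPC library was below the same-numbered library of either vehicle. The log2 fold change of CYP7A1 was -0.22 with a 95% interval of -0.44 to 0.00 (adjusted p = 0.388). KLB, the co-receptor for the bile acid hormone FGF19, was the only one of 19 genes of bile acid synthesis and transport called by edgeR against ethanol (0.31, adjusted p = 0.0345), a call lost in each fit without a library, at adjusted p up to 0.124. DESeq2 called 3 of these 19 higher. Among all genes tested edgeR called 0.629% higher against ethanol, and DESeq2 called 213 genes higher. All 3 DLPC libraries lay above all 3 ethanol libraries in 5 of the 19 and below them in 2. Among 12 LXR targets edgeR called 0 against ethanol, DESeq2 2 and limma-voom 0, and edgeR with the replicate number as a block called 2. Before adjustment 4 had a p under 0.05 in edgeR, beside 1930 of all 14797 tested. Among all genes tested edgeR called 1.04% against ethanol, and DESeq2 called 380 genes. The median log2 fold change of the 12 against ethanol was 0.11, and 10 were positive. All 3 DLPC libraries lay above all 3 ethanol libraries in 5 of the 12 (9.79% of all genes tested) and below them in 0 (9.39%). ABCC3 (0.31, adjusted p = 0.00353) and PLTP (0.23, adjusted p = 0.0354) rose against DMSO, where 1.59% of all genes tested rose.

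Genes that make and remodel phosphatidylcholine gave no calls against ethanol in edgeR. Among the 27 tested, edgeR called 0, DESeq2 2 (1 higher and 1 lower) and limma-voom 0, and edgeR with the replicate number as a block called 3. Before adjustment 3 had a p under 0.05 in edgeR, beside 1930 of all 14797 tested. The median log2 fold change was 0.00. PCYT1A, the rate-limiting enzyme of the choline pathway, had 31.1, 34.8 and 32.3 CPM with DLPC, against 31.8, 37.5 and 32.5 CPM with ethanol and 31.6, 36.0 and 31.4 CPM with DMSO. The groups overlapped, and the 95% interval of its log2 fold change was -0.23 to 0.13. LPCAT3, which remodels phospholipids with polyunsaturated acyl chains, had 135, 142 and 132 CPM with DLPC, against 117, 125 and 117 CPM with ethanol and 115, 131 and 123 CPM with DMSO. It did not overlap with either vehicle and was not called (0.19, adjusted p = 0.111). CHKA, the choline kinase at the start of the pathway, fell against DMSO (-0.33, adjusted p = 0.0172), and its value against ethanol was -0.24 (adjusted p = 0.123).

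PLA2G2A, a secreted phospholipase A2 that releases fatty acids from phospholipids and is induced in inflammation, was among the largest falls. PLA2G2A (chromosome 1, 19975431 to 19980416) had 16.5, 14.5 and 16.3 CPM with DLPC, against 29.5, 32.0 and 29.6 CPM with ethanol and 28.6, 24.9 and 24.8 CPM with DMSO. DLPC stood well below both vehicles, and the log2 fold change was -0.95 ± 0.13 against ethanol (adjusted p = 0.00107) and -0.73 ± 0.13 against DMSO. It was the only call against ethanol among 10 tested phospholipase A2 genes, and PLA2G1B was also called lower against DMSO. Among all genes tested 0.412% fell against ethanol and 0.98% against DMSO. The median log2 fold change of the 10 was -0.13 against ethanol and -0.02 against DMSO. All 3 DLPC libraries lay below all 3 ethanol libraries in 4 of the 10 (9.39% of all genes tested) and above them in 0 (9.79%).

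UBD, which encodes the ubiquitin-like modifier FAT10 and is known to be induced by TNF and interferon gamma, had the largest fall among called genes that averaged at least 1 CPM. UBD (chromosome 6, 29555515 to 29559925) had 15.9, 18.7 and 15.6 CPM with DLPC, against 34.5, 39.2 and 38.2 CPM with ethanol and 32.7, 41.0 and 33.4 CPM with DMSO. The highest DLPC library was far below the lowest vehicle library. The log2 fold change was -1.16 ± 0.11 against ethanol (adjusted p = 2.1e-05) and -1.09 ± 0.11 against DMSO (adjusted p = 3.81e-05). The other 28 genes of antigen presentation and interferon response were not called by edgeR against ethanol, where 0.412% of all genes tested fell. DESeq2 called 2 of the 29, both lower. The median of the list was -0.09, and 7 of the 29 were positive. All 3 DLPC libraries lay below all 3 ethanol libraries in 8 of the 29 (9.39% of all genes tested) and above them in 2 (9.79%). Against DMSO 3 of the 29 fell in edgeR (0.98% of all genes tested) and 0 rose.

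Among NF-kB genes only falls were called. Of 29 tested genes, 5 fell and 0 rose against ethanol, and 3 of the 5 also fell against DMSO. Over all genes tested 0.412% fell against ethanol and 0.304% against both vehicles. The median log2 fold change of the 29 was -0.13 against ethanol and -0.04 against DMSO. In 11 of the 29 all 3 DLPC libraries lay below all 3 ethanol libraries, which held for 9.39% of all genes tested. The count of 5 was 3 without DLPC replicate 1 or 2 or any 1 ethanol library. Summed over the list, the level was 1129 to 1198 CPM with DLPC, 1273 to 1297 CPM with ethanol and 1233 to 1265 CPM with DMSO.

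RELB (chromosome 19, 45001430 to 45038198), a subunit of NF-kB in the non-canonical pathway, had 4.10, 3.53 and 4.03 CPM with DLPC, against 7.0, 7.12 and 6.90 CPM with ethanol and 5.39, 6.92 and 4.91 CPM with DMSO. The DLPC libraries were below all vehicle libraries, and the log2 fold change was -0.85 ± 0.13 against ethanol (adjusted p = 0.00185) and -0.56 ± 0.13 against DMSO (adjusted p = 0.025). NFKBIZ (chromosome 3, 101827991 to 101861022), a nuclear regulator of NF-kB target genes, had 8.63, 8.68 and 8.65 CPM with DLPC, against 12.3, 12.1 and 12.2 CPM with ethanol and 11.3, 13.2 and 11.0 CPM with DMSO. DLPC lay below every vehicle library, and the log2 fold change was -0.50 ± 0.08 against ethanol (adjusted p = 0.00263) and -0.45 ± 0.08 against DMSO. ICAM1 (chromosome 19, 10270835 to 10286615), an adhesion molecule bound by leukocytes, had 88.4, 78.3 and 84.8 CPM with DLPC, against 106, 107 and 109 CPM with ethanol and 99.6, 99.4 and 104 CPM with DMSO. It stood below the vehicles in every DLPC library, with a log2 fold change of -0.36 ± 0.05 against ethanol (adjusted p = 0.00107) and -0.27 ± 0.05 against DMSO.

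The remaining calls of the list were weaker. IL32, a cytokine gene, had a log2 fold change of -0.28 against ethanol (adjusted p = 0.0345) and -0.23 against DMSO (adjusted p = 0.0608), and its call was lost in each of the 6 fits without a library, at adjusted p up to 0.144. CXCL2, a neutrophil chemokine, had 0, 0 and 0.0936 CPM with DLPC, against 0.418, 0.487 and 0.503 CPM with ethanol and 0.174, 0.328 and 0.131 CPM with DMSO, where a floor of 3 counts is 0.086 to 0.107 CPM. It was called against ethanol in the full fit and in 1 of the 6 fits without a library, and not against DMSO. NFKBIA, the inhibitor that NF-kB induces, was called against DMSO (-0.22, adjusted p = 0.0486) and not against ethanol (-0.21, adjusted p = 0.0814). NFKB1, RELA and TNFAIP3 were not called against ethanol, with log2 fold changes of -0.02, -0.13 and -0.25.

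Promoter stretches of UBD and NFKBIZ are shown because each holds a match to the NF-kB consensus (searched on both strands), marked in capitals. They are the 250 bases before a RefSeq start (GRCh38.p14), at chr6:29559733-29559982 on the minus strand and chr3:101827740-101827989 on the plus strand.
UBD: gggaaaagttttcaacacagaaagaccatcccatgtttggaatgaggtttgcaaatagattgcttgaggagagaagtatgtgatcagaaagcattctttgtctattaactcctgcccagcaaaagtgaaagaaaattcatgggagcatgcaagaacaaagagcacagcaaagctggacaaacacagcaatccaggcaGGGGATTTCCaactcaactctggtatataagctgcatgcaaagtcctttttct
NFKBIZ: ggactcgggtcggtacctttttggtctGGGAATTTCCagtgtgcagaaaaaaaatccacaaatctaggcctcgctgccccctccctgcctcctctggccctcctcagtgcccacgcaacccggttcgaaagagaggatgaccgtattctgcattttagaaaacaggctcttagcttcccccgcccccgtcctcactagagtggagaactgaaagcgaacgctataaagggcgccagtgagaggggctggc

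The consensus was present in 17 of the 24 listed NF-kB genes that had a window (70.8%) and in 17.2% of all tested genes with one. In the called members it was present in 3 of 4 with a window.

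Acute phase genes were called in both directions. Of 22 tested genes 3 fell and 1 rose against ethanol, and the same 4 were called against DMSO in the same direction. Against DMSO 4 fell and 1 rose in all. Among all genes tested 0.412% fell and 0.629% rose against ethanol. The median log2 fold change of the 22 against ethanol was -0.03, and 7 were positive. All 3 DLPC libraries lay below all 3 ethanol libraries in 7 of the 22 (9.39% of all genes tested) and above them in 2 (9.79%). SERPINA3 (chromosome 14, 94612377 to 94624055), a serine protease inhibitor, had 228, 222 and 220 CPM with DLPC, against 303, 297 and 294 CPM with ethanol and 310, 302 and 291 CPM with DMSO. HP (chromosome 16, 72054592 to 72061055), which encodes the haemoglobin-binding haptoglobin, had 165, 170 and 161 CPM with DLPC, against 226, 224 and 199 CPM with ethanol and 229, 234 and 207 CPM with DMSO. For both genes the highest DLPC library was below the lowest vehicle library. The log2 fold changes against ethanol were -0.42 ± 0.07 for SERPINA3 (adjusted p = 0.00407) and -0.39 ± 0.07 for HP (adjusted p = 0.00694).

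HPX, the haem-binding hemopexin, had a log2 fold change of -0.41 against ethanol (adjusted p = 0.023) and SAA4, a constitutive serum amyloid A, had 0.35 (adjusted p = 0.0267). The call of HPX was lost without DLPC replicate 1 or 3 or ethanol replicate 2 or 3, at adjusted p up to 0.137, and that of SAA4 in each fit except the one without DLPC replicate 3, at adjusted p up to 0.1. HP has a near-identical neighbour, HPR, so that the assignment of reads between them is uncertain. C3, CFB, ORM1 and SERPINA1 had log2 fold changes between -0.07 and 0.00 and were not called. JUNB, an early response gene downstream of STAT3, fell (-0.38, adjusted p = 0.0366) as the only call of 16 IL-6 and STAT3 genes, a call kept only in the fit without DLPC replicate 1 of the 6.

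TAGLN, an actin-binding protein of contractile cells, was among the largest falls. TAGLN (chromosome 11, 117199321 to 117204782) had 16.8, 19.4 and 18 CPM with DLPC, against 31.0, 35.6 and 29.9 CPM with ethanol and 31.3, 30.9 and 29.1 CPM with DMSO. DLPC overlapped with neither vehicle, and the log2 fold change was -0.83 ± 0.11 against ethanol (adjusted p = 0.000635) and -0.75 ± 0.11 against DMSO. Of 26 genes of actin, SRF and YAP targets, TAGLN and CYR61 fell and ACTG1 rose against ethanol. Among all genes tested 0.412% fell and 0.629% rose. All 3 DLPC libraries lay below all 3 ethanol libraries in 6 of the 26 (9.39% of all genes tested) and above them in 3 (9.79%). CYR61, a YAP target, had -0.46 against ethanol (adjusted p = 0.023) and -0.22 against DMSO (adjusted p = 0.267), and ACTG1, a cytoplasmic actin, had 0.24 and 0.29. The call of CYR61 was lost in 4 and that of ACTG1 in 5 of the 6 fits without a library, at adjusted p up to 0.132 and 0.266.

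**Figure D3:**
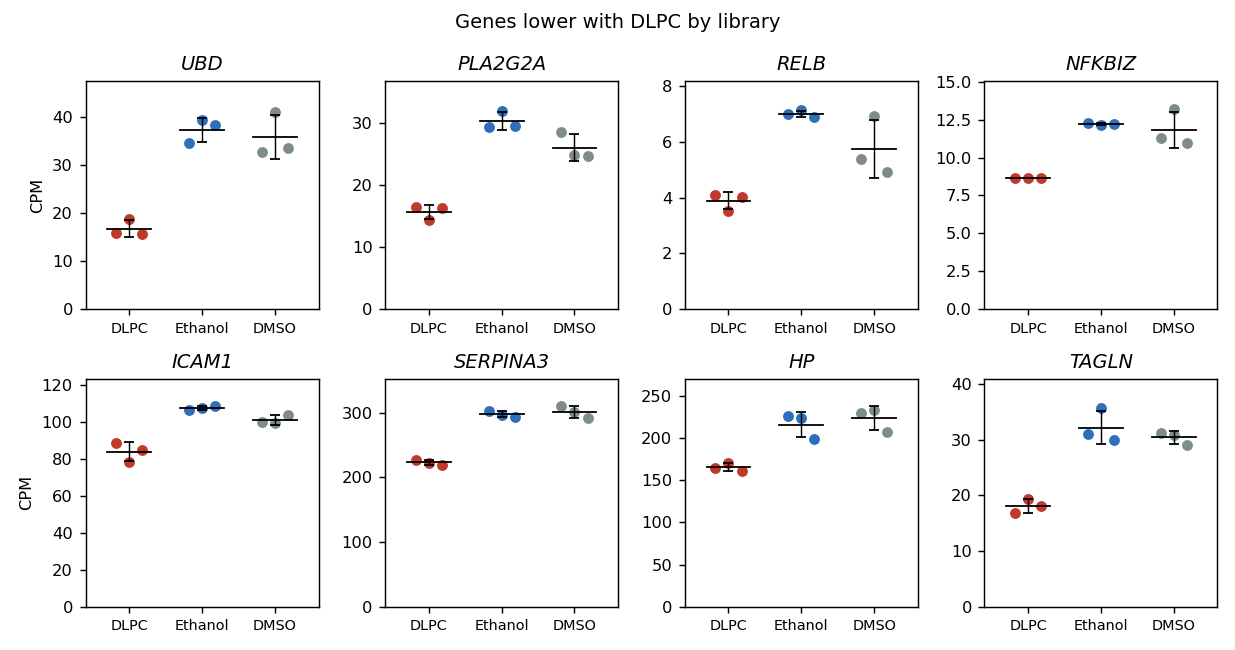
CPM in each library (dots) of 8 genes that fell with DLPC, with the mean (line) and SD (bars) of 3 libraries for DLPC, ethanol and DMSO. The DLPC libraries lie below all 6 vehicle libraries in each panel, as for UBD with 15.6 to 18.7 CPM with DLPC.

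Further genes outside the lists fell with DLPC against both vehicles. SPINK1, a trypsin inhibitor, had 3.99, 3.80 and 3.56 CPM with DLPC, against 6.52, 6.21 and 6.64 CPM with ethanol and 7.56, 6.30 and 7.29 CPM with DMSO, a log2 fold change of -0.77 ± 0.11 against ethanol (adjusted p = 0.00174). SCGN, the calcium-binding secretagogin, had 24.8, 25.4 and 22.8 CPM with DLPC, against 36.1, 39.6 and 37.5 CPM with ethanol and 35.8, 40.5 and 38.4 CPM with DMSO, a log2 fold change of -0.63 ± 0.07 (adjusted p = 8.83e-05). In neither gene did DLPC and vehicle libraries overlap. ODAM, first known from tooth enamel organs, had a log2 fold change of -0.67 ± 0.08 (adjusted p = 0.000368), and ANXA3, an annexin, had -0.80 ± 0.18 (adjusted p = 0.0345). The call of ANXA3 was kept only without ethanol replicate 3 of the 6 fits without a library, and adjusted p reached 0.158.

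Other calls in both vehicles were chosen for description after their values were seen. The glutamine transporters SLC1A5 and SLC38A5 fell against ethanol (-0.24 and -0.32, adjusted p = 0.00649 and 0.00521). SPP1, which encodes osteopontin, fell (-0.31, adjusted p = 0.00712), as did DHRS2, a short-chain dehydrogenase (-0.29, adjusted p = 0.0024). IFITM3, which restricts viral entry and has near-identical paralogs, fell (-0.36, adjusted p = 0.00359). Among the rises, RAPGEF1, an activator of Rap GTPases, had 0.51 ± 0.06 against ethanol (adjusted p = 0.000368) and 0.33 against DMSO. ARRDC3, an arrestin-family adaptor, had 0.60 ± 0.14 against ethanol (adjusted p = 0.0495) and 0.83 against DMSO, but was called in 1 of the 6 fits without a library, at adjusted p up to 0.256. SLC13A5, the plasma membrane citrate transporter, had 0.33 ± 0.07 (adjusted p = 0.024), with its call lost without DLPC replicate 1 or 3 or ethanol replicate 2 or 3, at adjusted p up to 0.158.

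**Figure D4:**
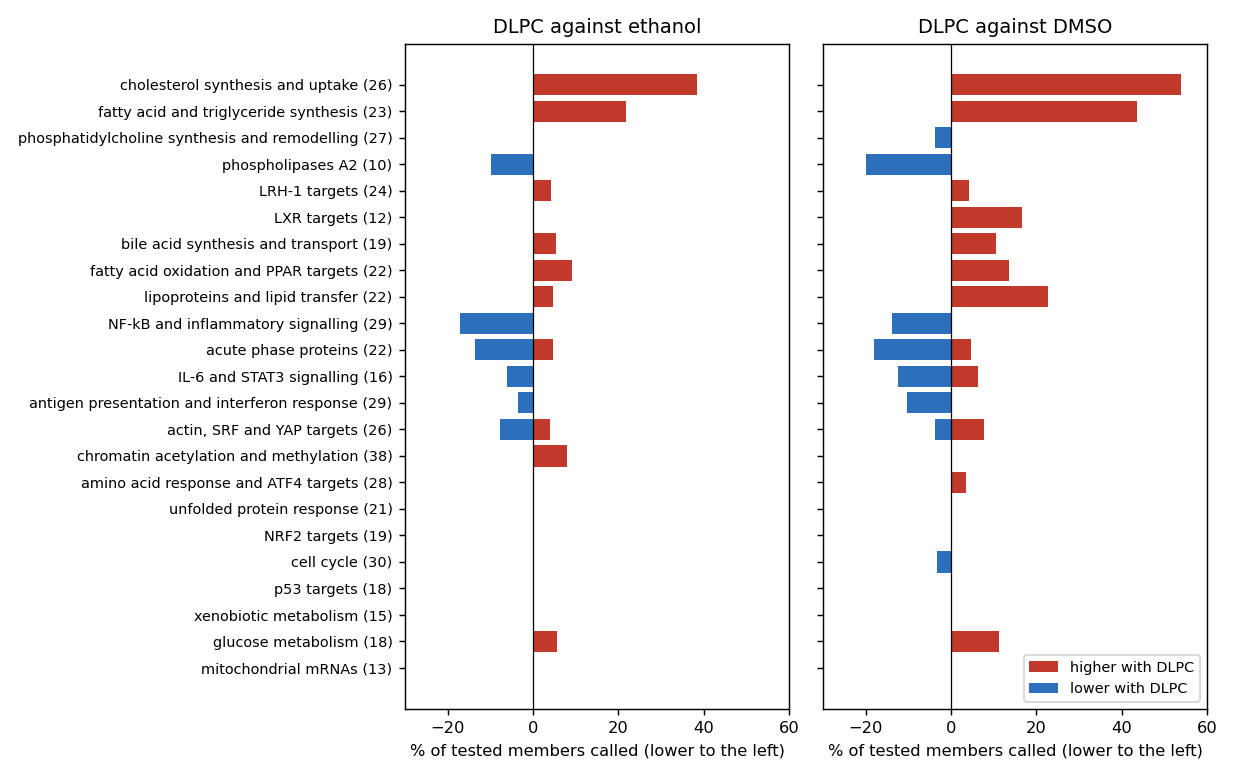
Share of tested members of each gene list called higher (right of 0, red) or lower (left of 0, blue) with DLPC, in percent, against ethanol (left panel) and DMSO (right panel), with the number tested in brackets. The longest bars are those of cholesterol synthesis and uptake, with 10 of 26 against ethanol and 14 of 26 against DMSO, and several lists have none.

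Stress and growth programmes gave 0 calls against ethanol in edgeR without a replicate block and 4 in DESeq2, all lower. With the replicate number as a block edgeR called 22, with 1 cell cycle gene higher and the others lower. Without the block, edgeR called none of 28 ATF4 targets, 21 genes of the unfolded protein response, 19 NRF2 targets, 30 cell cycle genes, 18 p53 targets, 15 genes of xenobiotic metabolism or 13 mitochondrial mRNAs. Of these 144 genes 27 had an unadjusted p under 0.05 in edgeR, beside 1930 of all 14797 tested, and limma-voom called 0. The median log2 fold changes of these lists lay between -0.09 and 0.10. In the order given, 7, 5, 3, 6, 6, 9 and 1 members had a positive value. All 3 DLPC libraries lay below all 3 ethanol libraries in 5, 3, 3, 7, 0, 1 and 2 members (9.39% of all genes tested). They lay above them in 1, 1, 1, 2, 1, 2 and 0 (9.79% of all genes tested). Over genes of at least 5 CPM the 95% interval reached a median of 0.155 to either side.

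A set of 32 genes was called higher against ethanol and not against DMSO. They had a median log2 fold change of 0.57 against ethanol and 0.14 against DMSO, and 3 of them had the opposite sign against DMSO. The 61 genes called higher against both vehicles had medians of 0.32 and 0.36. In 30 of the 32 ethanol had the lowest mean of the 6 groups of the series, and in 23 ethanol replicates 1 and 2 were below all other 16 libraries. Choosing genes called against ethanol and not against DMSO favours a low ethanol level, so these counts are in part set by the choice. The shares of all tested genes with these patterns were not counted. Ethanol replicate 3 was the highest ethanol library in 25 of the 32, and in 10 of the 61. The 16 genes called lower against ethanol only had medians of -0.34 against ethanol and -0.24 against DMSO, and all 16 had an unadjusted p under 0.05 against DMSO.

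These genes included the chromatin regulators CARM1, BRD1 and TADA2B. CARM1, an arginine methyltransferase, had 40.1, 48.7 and 44.8 CPM with DLPC, against 21.2, 19.8 and 33.0 CPM with ethanol and 44.4, 40.4 and 29.5 CPM with DMSO. BRD1, a bromodomain subunit of a histone acetyltransferase, had 32.1, 34.7 and 32.1 CPM with DLPC, against 14.3, 17.0 and 24.9 CPM with ethanol and 33.0, 34.4 and 23.3 CPM with DMSO. TADA2B, a subunit of the SAGA complex, had 19.1, 23.7 and 19.5 CPM with DLPC, against 9.93, 10.2 and 15.2 CPM with ethanol and 23.0, 24.7 and 16.9 CPM with DMSO. In all 3 genes DLPC lay above ethanol and overlapped with DMSO, and ethanol replicate 3 stood close to DMSO replicate 3. Log2 fold changes were 0.86, 0.82 and 0.82 against ethanol (adjusted p = 0.0244, 0.0342 and 0.0256) and 0.22, 0.12 and -0.05 against DMSO (adjusted p = 0.577, 0.791 and 0.92).

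These 3 were the only calls of edgeR against ethanol among 38 genes of chromatin acetylation and methylation, where 0.629% of all genes tested rose. Against DMSO 0 of the 38 were called. The median log2 fold change of the list was 0.03 against ethanol and 0.01 against DMSO. All 3 DLPC libraries lay above all 3 ethanol libraries in 5 of the 38 (9.79% of all genes tested) and below them in 3 (9.39%). Without any 1 of the DLPC libraries or ethanol replicate 1 or 2 the list had 0 calls, and without ethanol replicate 3 it had 3. SLC6A8, the creatine transporter, had 638, 562 and 579 CPM with DLPC, against 327, 285 and 420 CPM with ethanol and 607, 514 and 459 CPM with DMSO. Its log2 fold change was 0.79 ± 0.14 against ethanol (adjusted p = 0.00617) and 0.17 against DMSO (adjusted p = 0.583), and without ethanol replicate 2 the adjusted p against ethanol was 0.0568. RXRA, the partner of many nuclear receptors, had 112, 113 and 109 CPM with DLPC, against 70.7, 73.6 and 88.0 CPM with ethanol and 105, 96.5 and 88.1 CPM with DMSO. RXRA was called against ethanol (0.53 ± 0.09, adjusted p = 0.00363) and not against DMSO (0.21, adjusted p = 0.215). MNX1, RNF19B and SDK1, the other largest rises of this kind, had 0.87, 0.85 and 0.79 against ethanol and 0.18, 0.01 and 0.43 against DMSO.

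**Figure D5:**
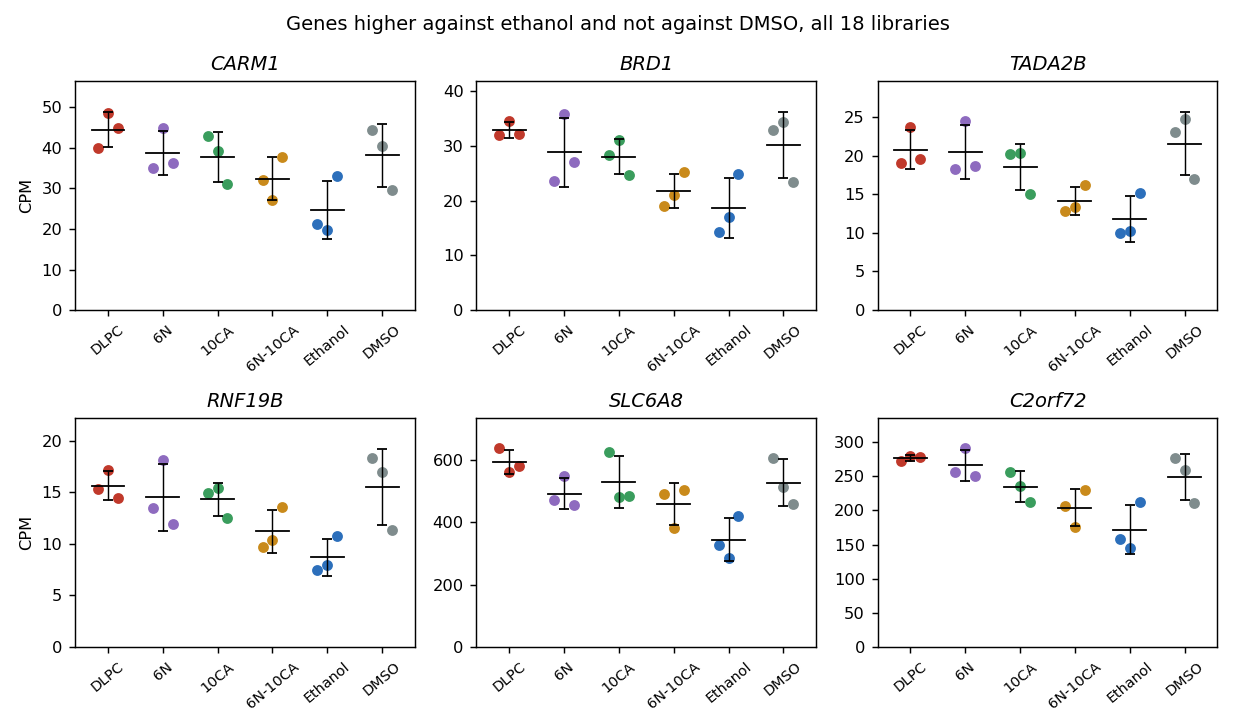
CPM in each of the 18 libraries (dots) of 6 genes called higher with DLPC against ethanol and not against DMSO, with the mean (line) and SD (bars) of the 3 libraries of each group. Ethanol has the lowest mean of the 6 groups in every panel, and its replicate 3, at the right of each ethanol set, is its highest library. The genes were chosen as higher with DLPC than with ethanol, which favours a low ethanol mean.

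Values of HMGCS1, MVD, UBD and CYP19A1 are set beside those with the small molecules, which were given at 10 µM and so are not matched in dose. Against DMSO the log2 fold changes for DLPC, 6N, 10CA and 6N-10CA were 0.42, -0.85, -0.07 and 0.24 for HMGCS1, and 0.41, -0.75, -0.21 and 0.19 for MVD. For UBD they were -1.09, -0.44, -0.11 and -0.41, and for CYP19A1 0.54, 0.12, -0.05 and 0.13. All 4 comparisons share the DMSO libraries, and differences between DLPC and the small molecules were not tested.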

How the data were processed

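HepG2 libraries were made from amplified cDNA and read as single ends on a NovaSeq, per the labels' protocols. The authors deposited raw counts, whole numbers by gene symbol, as 1 table of 35238 rows for all 18 libraries. GRCh38 was the build and DESeq2 a tool used, per the submitters' processing notes. Not given in the sources used here are the aligner, the counting tool, the length of treatment and the strandedness, so reads of overlapping genes (ANGPTL8 and DOCK6, all of HP, JUNB and NR0B2, and a part of ACAT2, ACSS2, C3, CARM1, CFB, LPCAT3, PCYT1A, PKLR, PLTP, PNPLA3, SLC13A5, SLC1A5, SLC6A8, SREBF1, TADA2B, TAGLN and UBD among those named) cannot be told apart from those of their partners. Spreadsheet software had turned 28 symbols into dates, and these are not named.

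From the counts, genes were kept by edgeR's filterByExpr (a minimum count of 10 and a total of 15), which left 14797 genes with 99.96% of all counts. All 18 libraries entered 1 fit with a mean per group and TMM scaling. Contrasts were tested two-sided with the quasi-likelihood test of edgeR 4.0.16 in R 4.3.3, with Benjamini-Hochberg adjustment over all genes tested and a threshold of 0.05. CPM are TMM-scaled, and the standard error is the log2 fold change over the root of the F statistic. The procedure was tested on simulated data. The biological coefficient of variation was 6.96%. The titles number the replicates without saying whether they are separate cultures, so p-values measure the spread between the samples alone, which may be technical. No 2 replicates of a group agreed within sampling noise (chi-square of 4.61 to 14.2 per gene). Floors of 3 counts cover counting error only.

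The comparison, the 25 gene lists (499 of 550 symbols tested) and the tests were chosen with earlier results of these data known. Genes named were the 10 largest rises and falls of at least 1 CPM without overlap between groups, against ethanol and against both vehicles, 4 called members of each list and a set of LRH-1, sterol, phospholipid and NF-kB genes. Other genes named are list members or calls that were chosen with their values in view. A few of the genes so picked are not reported here. Alternatives were a replicate block, DESeq2 1.42.0, DESeq2 size factors, limma-voom (limma 3.58.1), other filters, fewer libraries, both vehicles averaged and leaving out each library. Positions are from GENCODE release 29 on GRCh38, with 94.2% of tested symbols matched. Promoters are from RefSeq (GRCh38.p14), with a window for 118 of the 154 called genes.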

Additional observations from a re-analysis of the deposited data

How the results depend on the processing

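With the replicate number as a block the counts were 997 against ethanol, 1665 against DMSO, 742 against both in the same direction and 18 between the vehicles. All 154 genes called without the block were called with it. Against ethanol the block gave 18 rises in cholesterol synthesis and uptake, 15 in fatty acid and triglyceride synthesis, 8 in lipoproteins and lipid transfer and 4 in bile acid synthesis and transport. It gave 10 falls in NF-kB genes and 6 in antigen presentation, 4 rises and 2 falls among chromatin genes, and 22 calls among the 144 stress, growth, xenobiotic and mitochondrial genes. Of the LRH-1 targets 2 rose and 1 fell against ethanol with the block, and 7 rose and 1 fell against DMSO. The titles number the replicates and state no pairing, and the numbers were not taken as pairing the samples in the main fit. Variation shared by libraries of the same number thus stayed in the spread of that fit. Deviations of same-numbered DLPC and ethanol libraries correlated at r = 0.234, 0.236 and 0.0635 across 12611 genes. Those of different numbers correlated at -0.224 to -0.00478, so that between these groups each library correlated best with its own number. The biological coefficient of variation was 4.42% with the block and 6.96% without it. In the same order the counts were 380, 731, 273 and 13 with DESeq2, and 329, 585, 214 and 37 without a filter on low counts. Against the mean of both vehicles 541 genes were called. Leaving out 1 library of the groups compared gave 56 to 118, 103 to 383, 41 to 95 and 0 to 7 calls, the 7 without ethanol replicate 3. DESeq2 size factors, limma-voom and a filter at 1 CPM gave 149, 153 and 162 calls against ethanol, and the fits of 9 and 6 libraries gave 154 and 123. Of the 58 named genes 2 changed sign, both near 0: without 1 library NR5A2 had -0.0868 (without ethanol replicate 1) to 0.258 (without ethanol replicate 3), and PCYT1A had -0.103 (without DLPC replicate 2) to 0.023 (without ethanol replicate 2). The cause was not tested. With 3 libraries a group, the 95% interval of a gene of at least 5 CPM reached a median of 0.155 log2 units to either side.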
